A study of Drosophila melanogaster with 249 samples.

Results

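Chromosome 4 of Drosophila melanogaster carried 108 of the 17142 annotated genes counted in RNA-Seq libraries of adult fly heads. Membership was taken from position alone: every gene of the count table that the BDGP6 FlyBase annotation places on chromosome 4 was included, and no expression value was used. Of the 108 genes, 78 were protein coding, 23 were noncoding RNAs, 6 were pseudogenes and 1 was a small nucleolar RNA, while the X chromosome carried 2574 genes of the same table.

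Chromosome 4, the dot chromosome, is the smallest of the fly genome and is largely packaged as heterochromatin, yet many of its genes are active. Its genes are bound by Pof, a protein that recognizes this chromosome, and by heterochromatin protein 1a, while the histone methyltransferase eggless (egg) and its partner windei (wde) are needed for the same chromatin. The chromosome is thought to derive from an ancestral X, and it holds several developmental regulators, among them the Pax6 genes ey and toy, the Hedgehog pathway factor ci and the Wingless pathway factor pan.

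The libraries came from pools of 10 heads of 5-day-old adults, and 235 of them were used: 97 XX, 96 XX with the tra2 alleles, 39 XY and 3 XY with the tra2 alleles. XX flies are females and XY flies are males, and the tra2 animals carried Df(2R)trix over tra2B, which turns XX flies into sex-transformed males. Most animals carried 1 DrosDel deletion over a wild-type homologue, 19 of these lines with a Df(1) deletion on the X (only in XX and tra2 XX) and 11 with a Df(3L) deletion on 3L (in XX, tra2 XX and XY). The lines without a deletion were w1118, the DrosDel parent, in all 4 groups, a w+ strain (Oregon-R, OreR below) in XX and XY, and w+/w1118 hybrids in XX and tra2 XX. The 3L lines were in a w1118 background, their XX and XY flies came from 1 cross, and the tra2 XX flies of every line with a deletion came from a longer series of crosses through other stocks. The labels describe chromosomes X, 2 and 3 only, so the origin of chromosome 4 in each cross is unknown, and replicates are numbered pools with no statement on whether they came from separate crosses.

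Reads assigned per library ranged from 667146 to 18679735, with a median of 7611689. Neuronal, glial and photoreceptor markers were all detected in every group, as were the muscle markers except fln and TpnC4, whose group medians lay between 0 and 3.87 normalized reads, and the 3 germline markers in the tables summed to at most 48 normalized reads. Levels below are given either as FPKM, fragments per kilobase of transcript scaled to library size, which can be compared between genes, or as normalized reads, the library-scaled counts of 1 gene, which cannot. In bulk heads, fewer cells of a type and less RNA per cell cannot be told apart.

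Chromosome 4 genes were expressed at higher levels than the genes of any other arm. The median over chromosome 4 genes of the mean log2(FPKM + 1) reached 4.61 for XX, 4.43 for tra2 XX and 4.93 for XY, against 1.82, 1.64 and 1.96 over all genes. The next highest arm was the X, with 2.32, 2.07 and 2.49. Among genes over 6 normalized reads the gap was smaller, at 4.97, 4.73 and 5.31 on chromosome 4 against 3.67, 3.57 and 3.83 over all genes, and the X was then the lowest arm, with 3.59, 3.41 and 3.71. A median of more than 6 normalized reads, the low-expression threshold used for these data, was reached by 80.6% of chromosome 4 genes in XX against 54.7% of all genes. Part of this gap was one of gene type, and it remained among protein-coding genes: 98.7% of those on chromosome 4 exceeded 6 normalized reads in XX against 65.8% of all, and their median levels were 5.07 and 2.69. These levels are a description without a test, because genes of 1 chromosome are not replicates.

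**Figure D1:**
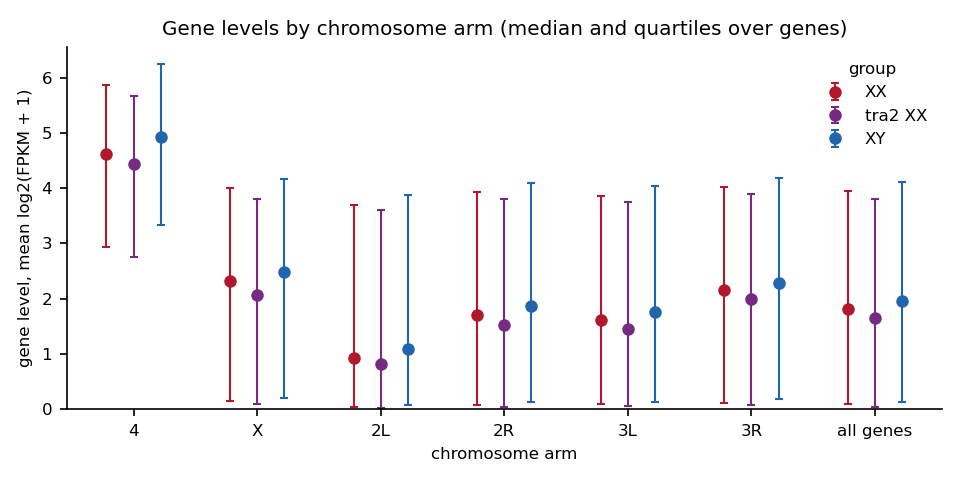
Level of the genes of each chromosome arm in heads, as the mean over lines of log2(FPKM + 1). Points are medians over genes and bars span the quartiles, in XX, tra2 XX and XY. The chromosome 4 medians of 4.61, 4.43 and 4.93 lie above those of every other arm.

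The most abundant transcripts encoded basic functions of translation and energy supply. RpS3A, a protein of the small ribosomal subunit, had the highest median FPKM of the chromosome, 2417 for XX, 2151 for tra2 XX and 1678 for XY. ATPsynbeta, the beta subunit of mitochondrial ATP synthase, had 1240, 1686 and 1249. The third was apolpp, the apolipophorin precursor that the fat body secretes to carry lipids, with 847, 851 and 431. XX therefore stood highest for RpS3A and tra2 XX for ATPsynbeta, while XY was the lowest of the 3 groups for RpS3A and apolpp.

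The other 7 of the 10 most abundant genes had median FPKM over all libraries between 119 and 246. They were CaMKI and CaMKII, calcium/calmodulin-dependent kinases, CG31997, ND-49, a subunit of mitochondrial complex I, Cals, a synaptic calsyntenin, PMCA, a plasma membrane calcium pump, and Pur-alpha, a protein that binds single-stranded nucleic acids. Developmental regulators lay lower, with median FPKM over all libraries of 32.0 for toy, 35.0 for pan, 11.1 for ci and 10.4 for ey. At the other end, asRNA:CR43425 had 0 reads in every library.

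The clearest pattern along the lines was that chromosome 4 genes were higher in the lines without a deletion than in the lines with one, in XX, tra2 XX and XY. The comparison was added after single-line contrasts had been seen, so it describes these lines and is not independent evidence. In XX the median over chromosome 4 genes of the log2 ratio to the deletion lines was 0.26 in OreR, 0.42 in w+/w1118 and 0.44 in w1118, against -0.67 to 0.21 in the 30 deletion lines. In tra2 XX it was 0.41 in w1118 and 0.46 in w+/w1118 against -0.20 to 0.37 in 30 lines. In XY it was 0.15 in OreR and 0.18 in w1118 against -0.19 to 0.07 in 11 lines. In no group did a deletion line reach the lowest of the lines without one. These values are from line means, and single libraries overlapped in each group. Against the median of the group, the lowest OreR library had -0.02 in XX and the highest Df(1)ED6957/+ library had 0.47. In XY the lowest OreR library had -0.16 and the highest Df(3L)ED4543/+ library 0.22. In tra2 XX the lowest w+/w1118 library had 0.27 and the highest Df(1)ED14021/+ library 0.52.

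The shift was that of a chromosome. On normalized reads, 76 of 87 expressed chromosome 4 genes in XX were higher on average in the lines without a deletion, with a median log2 ratio of 0.43, while the medians of the other 5 arms lay between -0.05 and 0.01. In tra2 XX the chromosome 4 median was 0.39 with 74 of 88 genes above 0, and in XY it was 0.19 with 70 of 87. The FPKM values gave 0.33, 0.44 and 0.12 for chromosome 4, beside 0.02 to 0.06, 0.24 to 0.27 and 0.00 to 0.04 for the other arms.

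**Figure D2:**
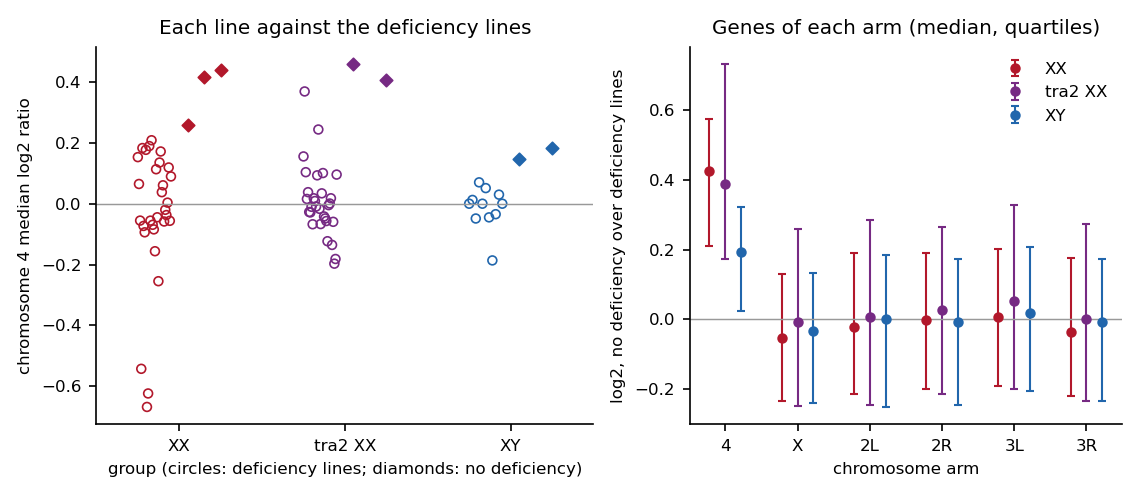
Lines without a deletion against lines with one. Left, the median over chromosome 4 genes of the log2 ratio of each line to the median of the deletion lines of its group (normalized reads). Circles are deletion lines and diamonds are lines without a deletion, which are the highest in each group. Right, the mean log2 value of lines without a deletion minus that of lines with one, by chromosome arm, as median and quartiles over genes. Only chromosome 4 lies away from 0, with medians of 0.43, 0.39 and 0.19.

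Tested gene by gene on the reads summed per line (quasi-likelihood F-test of edgeR, p-values adjusted by Benjamini-Hochberg over all genes), 34 of 96 chromosome 4 genes passed in XX, 33 higher and 1 lower in the lines without a deletion, where 11.6% of all genes passed (6.65% higher and 4.99% lower). In tra2 XX 54 of 93 passed, 51 higher and 3 lower, against 28.7% of all genes (14.5% and 14.2%). In XY 37 of 97 passed, 30 higher and 7 lower, against 28.1% of all genes (14.6% and 13.5%). The median log2 fold changes were 0.37, 0.36 and 0.15 on chromosome 4 and -0.03, 0.01 and 0.00 over all genes tested.

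The genes that were higher in all 3 groups numbered 17 of the 93 tested in each (18.3%), and 0 were lower in all 3, against 2.76% higher and 2.5% lower of the 10163 genes tested in each. Among them were regulators of transcription and signalling: pho, a DNA-binding Polycomb group protein, toy, the Pax6 factor upstream of ey, Actbeta, an activin family ligand, and Crk, an SH2/SH3 adaptor. Genes of nerve cells and of cell surfaces were Syt7, a synaptotagmin family calcium sensor, CaMKII, dpr7, an immunoglobulin family surface protein, and Zyx, the focal adhesion protein zyxin. The others were Arl4, CG11076, CG1909, CG33521, CR32009, PIP4K, a phosphoinositide kinase, RhoGAP102A and the noncoding asRNA:CR45126 and lncRNA:CR44024. The groups share lines but not libraries.

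Syt7 had line means of 1056, 1212 and 1344 normalized reads in the 3 XX lines without a deletion and 472 to 892 (median 719) in the 30 lines with one. These did not overlap, and the log2 fold change was 0.73 ± 0.10 (SE, adjusted p = 7.03e-06, edgeR). In tra2 XX its means were 1172 and 1269 against 402 to 939 (median 629), again without overlap, and in XY they were 1207 and 1383 against 846 to 1253 (median 935), with overlap at the edge.

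For pho the XX line means were 520, 550 and 593 against 275 to 503 (median 402), those in tra2 XX 536 and 547 against 279 to 437 (median 337), and those in XY 563 and 620 against 391 to 539 (median 457). The groups did not overlap in any of the 3, with log2 fold changes of 0.48 ± 0.10, 0.61 ± 0.10 and 0.39 ± 0.07 (SE). The same separation was seen for PIP4K, at 629, 789 and 807 against 358 to 551 (median 469) in XX, with log2 fold changes of 0.65 ± 0.09, 0.71 ± 0.12 and 0.52 ± 0.07, and for CaMKII, with 0.60 ± 0.12, 0.66 ± 0.11 and 0.28 ± 0.09. For toy the XX lines did not overlap, at 748, 793 and 794 against 407 to 667 (median 560), nor did the XY lines, at 870 and 1026 against 602 to 766.

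By function, 7 of 18 transcription factors and cofactors rose in XX and 0 fell, 13 rose and 1 fell in tra2 XX, and 3 rose and 2 fell in XY. Over all genes 6.65% rose and 4.99% fell in XX, 14.5% and 14.2% in tra2 XX, and 14.6% and 13.5% in XY. The transcription factor counts in XY were near these shares. The synapse and neuronal signalling genes gave 4 higher and 1 lower of 10 in XX, 7 and 0 in tra2 XX, and 3 and 1 in XY. Of the cell surface and axon guidance genes, 3 of 7 rose and 0 fell in each group, these being Crk, Zyx and dpr7. Of the 3 TGF-beta family ligands, 1 rose in each group, Actbeta, and 0 fell. Translation, energy and basic functions counted 1 higher and 0 lower of 10 in XX, near the share over all genes. The same list had 3 and 1 in tra2 XX, and 4 and 1 in XY. The list of muscle, lipid transport and other genes did not lean this way, with 1 higher and 0 lower of 4 in XX, 1 and 1 in tra2 XX, and 0 and 2 in XY, and medians of 0.01, -0.18 and -0.22. Genes on none of the lists gave 16 higher and 0 lower of 44 in XX, 23 and 0 of 41 in tra2 XX, and 16 and 1 of 45 in XY.

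**Figure D3:**
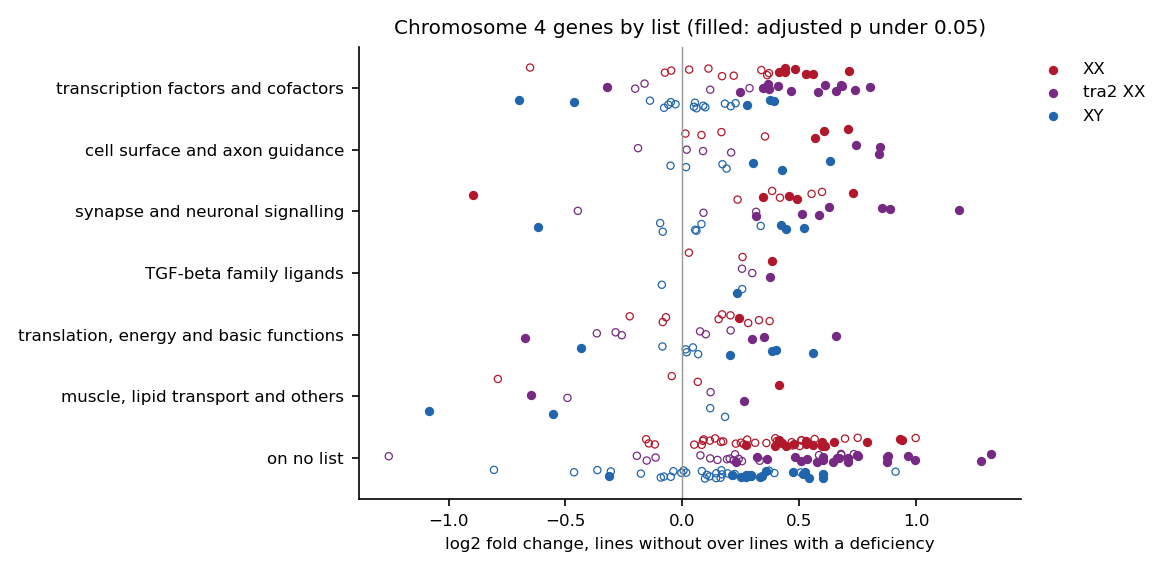
Log2 fold change of each chromosome 4 gene between lines without and lines with a deletion, by functional list, in XX, tra2 XX and XY. Filled points passed an adjusted p of 0.05 (edgeR) and open points did not; most filled points lie to the right of 0 except in the muscle and lipid transport list (2 to the right and 3 to the left over the 3 groups), and the filled points furthest to the left are bt, Gat, zfh2 and ATPsynbeta.

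A few genes went the other way. Gat, the GABA transporter of glia, was lower in the lines without a deletion in XX, by a log2 fold change of -0.89 ± 0.18 (adjusted p = 0.00076, edgeR), with line means of 261, 635 and 637 against 551 to 1153 (median 924). It was also lower in XY, at 616 and 1088 against 990 to 1562, -0.62 ± 0.20. The glial markers moved the same way: repo was lower by 0.51, 0.50 and 0.40 and nrv2 by 0.90, 0.53 and 0.50 on the log2 scale in XX, tra2 XX and XY, and moody also passed as lower in each. The 3 markers summed to 2301 to 2721 normalized reads in the XX lines without a deletion and 3281 to 5343 in those with one, and their part in the Gat result was not tested.

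The muscle gene bt, which encodes the giant protein projectin, was lower in XY by -1.08 ± 0.10, at 1745 and 1840 normalized reads against 2743 to 4125 (median 3640), and in tra2 XX by -0.65 ± 0.18. The muscle markers Mhc and sls also passed as lower in XY, at -0.75 and -1.44, and the 6 muscle markers summed to 11155 and 15358 in the XY lines without a deletion against 17544 to 23691. With a correction for gene length, bt in XY had -0.19 (adjusted p = 0.163, edgeR). In tra2 XX, ATPsynbeta fell by 0.67 on the log2 scale, at 10450 and 10730 normalized reads against 13691 to 21609, without overlap.

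Among the neuronal markers nSyb rose by 0.33 in XX and 0.30 in XY, brp fell by 0.42 in XY, and elav and Syt1 did not pass in any group. The 4 neuronal markers summed to 16405 to 19169 normalized reads in the XX lines without a deletion, within the 8021 to 19594 of the lines with one. Their sums also overlapped in tra2 XX (13254 and 17573 against 8947 to 17199) and in XY (19607 and 21728 against 16850 to 21612). The median of these sums over lines was higher without a deletion in each group. It was 18378 against 15273 in XX, 15414 against 12637 in tra2 XX and 20667 against 19765 in XY. The sums of the 4 photoreceptor markers did not overlap in XY, at 247860 and 277737 in the lines without a deletion against 166483 to 206241. Those in XX and tra2 XX did overlap. Most of this sum is ninaE, with a median of 141365 normalized reads over the XY libraries, beside 18038 for trp. The sums of the 6 muscle markers did not overlap in tra2 XX, at 13041 and 15242 against 16845 to 22432. Nor did the sums of the 3 glial markers in tra2 XX, at 3645 and 4077 against 4112 to 6585. In XY the glial sums did not overlap either, at 3653 and 4129 against 4546 to 6166. Pof passed as higher in XX and tra2 XX, at 0.40 and 0.58, and had 0.11 in XY without passing. The gene of heterochromatin protein 1a rose in tra2 XX and XY, at 0.25 and 0.56. The part of these genes in the chromosome 4 shift was not tested.

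With the correction for gene length the counts were 59, 62 and 45, with 57, 57 and 44 of them higher, and the chromosome 4 medians were 0.41, 0.36 and 0.27. Over all genes 1831 of 11033, 3561 of 10292 and 2366 of 11365 passed on that scale, 1174, 1543 and 1476 of them higher. In XX leaving out any 1 of the 3 lines without a deletion gave 21 calls, the count in tra2 XX rested on w+/w1118 (22 without it) and that in XY rested on w1118 and on replicate 3 (17 without either). Strain, cross and day of preparation cannot be told apart here, because the labels give no batch and every deletion line is a cross. Flies of w+/w1118 are a cross as well. Over the libraries of a group, the chromosome 4 median log2 ratio and the log of the reads had r of 0.65 (XX), 0.32 (tra2 XX) and 0.45 (XY). The w1118 libraries had 12060983 to 13226309 reads in XX, 7794851 to 13306476 in tra2 XX and 10322848 to 13819380 in XY. The group medians were 8859704, 5691607 and 10022543. The part of read depth was not tested.

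Each line was tested against the mean of the other lines of its group. Among lines with a deletion, 18 of 30 in XX, 21 of 30 in tra2 XX and 6 of 11 in XY had no chromosome 4 gene past the threshold, and 7.86%, 3.33% and 0.889% of their chromosome 4 tests passed, beside 6.87%, 2.94% and 1.16% of all tests in these lines. In XX 184 of their 217 calls came from 3 lines, which are described below. The lines without a deletion held 88 of 305 calls in XX, 112 of 200 in tra2 XX and 37 of 46 in XY. In these lines 31.9% of chromosome 4 tests passed in XX beside 11.2% of all tests, and 63.6% beside 34.1% in tra2 XX. In XY 20.1% passed, near the share of all genes, which was 17.5% in w1118 and 20.5% in OreR. Of these XY calls 36 were higher and 1 was lower. With both kinds of line, 10.0% of the chromosome 4 tests passed in XX against 7.27% of all tests, 7.10% against 4.89% in tra2 XX, and 3.85% against 3.9% in XY.

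Among the 11 3L lines, the deletion lines with libraries in all 3 groups, Df(3L)ED217/+ had 3 chromosome 4 genes that passed in the same direction in XX, tra2 XX and XY, while 1.87%, 0.9% and 1.04% of all genes passed in these contrasts. The genes were yellow-h, of the yellow family, mav, the TGF-beta family ligand maverick, and CG31999. None of the other 10 had a gene that passed in the same direction in all 3 groups. The w1118 line had 15, all higher, where 14.1%, 33.8% and 17.5% of all genes passed in XX, tra2 XX and XY taken singly. The share of all genes that passed in all 3 groups was not determined, so 3 and 15 cannot be set against it. The triplet was singled out after its values were seen.

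In XX the Df(3L)ED217/+ libraries had 47.6, 52.8 and 69.3 normalized reads of yellow-h, against 64.9 to 188 (median 107) in 94 libraries of other lines. In XY they had 54.6, 57.3 and 62.0 against 77.9 to 234 (median 129), and in tra2 XX 43.1, 59.9 and 68.4 against 73.4 to 204 (median 122). All 9 libraries were low, and those of XY and tra2 XX did not overlap with any other library. The log2 fold changes were -0.94 ± 0.16, -1.13 ± 0.16 and -1.13 ± 0.16 (adjusted p = 2.77e-05, 2.95e-05 and 1.14e-06, edgeR).

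For mav the line had 189, 203 and 212 normalized reads in XX, a median of 226 and a highest value of 245 in XY, and 146, 155 and 194 in tra2 XX, against medians of 314, 340 and 294 in the other lines. Its line mean was the lowest of all lines in each group, as it was for yellow-h, and the log2 fold changes were -0.66 ± 0.13, -0.60 ± 0.08 and -0.86 ± 0.14. CG31999 fell by 0.55, 0.58 and 0.60 on the log2 scale. In the annotation CG31999 and yellow-h are direct neighbours, at positions 24 and 25 in the order of genes along the chromosome, and mav is at position 58. In tra2 XX, CG31997, PIP4K and Zip102B, a zinc transporter, were also lower, at -0.56, -0.54 and -0.42.

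A few other genes stood out in 1 line and 1 group, and they were singled out after their values were seen. The Hedgehog pathway factor ci had 335, 701 and 1398 normalized reads in XX Df(1)ED6630/+ against 165 to 693 (median 347) in the 94 other XX libraries (adjusted p = 6.83e-09, edgeR), so 2 of its 3 libraries lay above every other. In that line 19 of 92 chromosome 4 genes passed, 17 higher and 2 lower, where 22.4% of all genes did. With the correction for gene length 11 passed, 7 higher and 4 lower, where 25.4% of all genes did. The chromosome 4 median went from 0.24 to -0.007. In XY Df(3L)ED4475/+ Kif3C had a log2 fold change of -1.11 ± 0.19 and RpS3A had 0.76 ± 0.21, where 2.97% of all genes passed. RpS3A rested there on 1 library, at 23162 normalized reads beside 5602 and 7074. In tra2 XX Df(1)ED7635/+ Gat had -0.86 ± 0.21, where 4.58% of all genes passed. In tra2 XX Df(1)ED14021/+ 40 of 88 chromosome 4 genes were higher and 0 lower, with 12.1% of all genes past the threshold. With the correction for gene length 8 were higher and 0 lower, where 2.22% of all genes passed. The chromosome 4 median of this line went from 0.35 to 0.20.

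Across whole lines, 3 XX lines stood apart. In Df(1)ED6878/+, Df(1)ED6906/+ and Df(1)ED6443/+ the median chromosome 4 log2 fold change was -0.66, -0.62 and -0.48, and 60, 61 and 48 of 92 genes were lower, where 48.4%, 41.2% and 31.0% of all genes passed. The tra2 XX flies with the same deletions had medians of -0.11, 0.00 and -0.02 and 0 chromosome 4 genes past the threshold. With the correction for gene length the XX medians were -0.31, -0.24 and -0.21. Lower calls numbered 44, 34 and 24 on that scale, and 11, 8 and 9 genes were higher, where 40.9%, 29.2% and 25.1% of all genes passed. Without these 3 lines, the chromosome 4 median log2 fold change between XX lines without and with a deletion was 0.31.

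Among libraries of 1 group, the median chromosome 4 log2 ratio to the group ran from -0.85 to 0.47 in XX, -0.66 to 0.59 in tra2 XX and -0.46 to 0.45 in XY. Its SD was 0.31, 0.21 and 0.17, against 0.011 to 0.040 for any other arm, each of which holds far more genes. Chromosome 4 genes are long, with a median span of 9271 bp in the annotation against 2975 bp elsewhere, and 42 of 87 fall in the fifth of genes with the longest span. Measured from the fifth of genes with the longest span on the other chromosomes, called long genes below, the SD was 0.14 for XX, 0.14 for tra2 XX and 0.19 for XY. Over the libraries of a group the chromosome 4 median and the summed neuronal markers had Pearson's r of 0.93 in 97 XX libraries, 0.80 in 96 tra2 XX libraries and 0.76 in 39 XY libraries, as a description of values that share library and depth.

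The comparison of XX with XY asks which genes differ between female and male heads. In w1118, 4 of 91 chromosome 4 genes passed (6.48% of all genes passed, 3.22% higher and 3.26% lower), 3 higher in XX and 1 lower. The gene with the largest fold change in favour of XX was apolpp, with 31731, 44560 and 34176 normalized reads in XX and 16291, 14528 and 6254 in XY. The groups did not overlap, and the log2 fold change was 1.55 ± 0.34 (adjusted p = 0.0222, edgeR). Sox102F, a Sox family transcription factor, rose by 0.55 ± 0.10 and eIF4G1, a scaffold of translation initiation, by 0.45 ± 0.12. The calls of apolpp and eIF4G1 held in 8 and 6 of 13 alternatives, and the count of genes was 2 without replicate 1 or 2 of XX or replicate 2 of XY and 7 without replicate 3 of XY.

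Gat was the gene lower in XX, with 306, 225 and 253 normalized reads against 689, 625 and 535 in XY. The log2 fold change was -1.26 ± 0.14 (adjusted p = 0.000567, edgeR), and the call held under all 13 alternatives. The glial marker nrv2 was lower as well, at -0.85, while repo and moody did not pass, and the 3 glial markers summed to 2256 to 2388 in XX and 3083 to 3993 in XY. Their part in the Gat result was not tested.

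In the 11 3L lines, with the line as the unit, 53 of 95 chromosome 4 genes passed, 13 higher and 40 lower in XX, beside 52.5% of all genes (23.8% higher and 28.7% lower), so the share was close to the background. On FPKM (limma on log2(FPKM + 1)) 84 passed, 82 of them lower and 2 higher (apolpp and RpS3A), so the balance of directions depends on the scale. Other chromosomes leaned the same way there. The mean log2 FPKM ratio over lines was below 0 for 95.4% of 87 expressed chromosome 4 genes and 78.6% of other genes. The median log2 fold change was -0.13 on chromosome 4 and -0.04 over all genes on counts, and -0.49 and -0.21 on FPKM.

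apolpp again led: its line means were 40447 to 87158 (median 73830) normalized reads in XX and 18386 to 33841 (median 23266) in XY. It was higher in XX in 11 of 11 lines without overlap of the groups, with a log2 fold change of 1.45 ± 0.12 (adjusted p = 8.5e-11, edgeR). The fat body markers fit and Lsp2 rose too, by 4.99 and 1.44, while to had -0.18 without passing, and the 3 summed to 2022 to 219349 normalized reads in single XX libraries and 440 to 37432 in XY. Their part in the apolpp result was not tested.

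RpS3A had line means of 8991 to 15217 (median 11975) in XX and 5869 to 11946 (median 6727) in XY. It was higher in XX in 10 of 11 lines, by 0.87 ± 0.07 (adjusted p = 2.02e-10, edgeR), and in w1118, where it did not pass, it had 0.34 ± 0.26. Sox102F rose in 11 of 11 lines by 0.34 ± 0.04 and bt in 11 of 11 by 0.37 ± 0.07, and neither passed on FPKM. Gat fell by 0.44 ± 0.08 and was lower in XX in 10 of 11 lines.

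Genes with roles in neurons were mostly lower in XX. Over all genes 28.7% fell and 23.8% rose in this comparison. Of the 10 synapse and neuronal signalling genes, 9 fell and 1 rose, with a median log2 fold change of -0.29. They included Cadps, the secretion activator of dense core vesicles, at -0.38 ± 0.05, and Syt7 at -0.36 ± 0.06, both lower in 11 of 11 lines. Of 18 transcription factors and cofactors, 10 fell and 2 rose, among them dati, a zinc finger factor of neurons, at -0.43 ± 0.05, toy at -0.33 ± 0.04 and ey at -0.30 ± 0.05. With the correction for gene length this list had 6 lower and 3 higher, and its median moved from -0.15 to -0.02. In w1118 it had 1 higher and 0 lower, with a median of 0.16, and the synapse list had a median of 0.08 with 0 higher and 1 lower. Genes of translation, energy and basic functions leaned the other way, with 5 higher and 1 lower of 10, a direction that turned on FPKM, where 1 was higher and 6 lower. The neuronal markers Syt1, brp and nSyb fell by 0.34, 0.42 and 0.35, and the 4 markers summed to a median of 15526 normalized reads in XX and 19360 in XY; their part was not tested.

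The comparison of tra2 XX with XX keeps 2 X chromosomes and changes somatic sex from female to male. The groups also differ in Df(2R)trix over tra2B itself and, in lines with a deletion, in the series of crosses. These differences cannot be told apart in this comparison. In w1118, 11 of 91 chromosome 4 genes passed (15.6% of all genes passed, 9.96% higher and 5.69% lower), 1 higher and 10 lower in tra2 XX, with a median log2 fold change of -0.36 against 0.02 over all genes. The gene that rose was Gat, with 992, 979 and 900 normalized reads in tra2 XX and 306, 225 and 253 in XX, a log2 fold change of 1.89 ± 0.14 (adjusted p = 1.11e-05, edgeR). Kif3C, a kinesin motor subunit, fell by 1.25 on the log2 scale, from 229, 207 and 241 to 82.2, 106 and 94.0 normalized reads. Both genes separated the groups without overlap. The tally of genes that passed varied with the choice of samples. It was 29 without replicate 1 of tra2 XY, whose libraries enter the same fit, and 51 in a fit of the tra2 XX and XX libraries alone. It was 4 to 6 without replicate 1, 2 or 3 of XX or replicate 2 or 3 of tra2 XX.

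Between tra2 XX and tra2 XY, which differ in X chromosome number and share the tra2 alleles, 0 of 91 chromosome 4 genes passed in edgeR and 0 had an unadjusted p under 0.05, while 0.254% of all genes passed (0.152% higher and 0.101% lower). DESeq2 called 0, with 1 at an unadjusted p under 0.05, and without tra2 XY replicate 1 edgeR called 2. Gat had 900, 1049 and 865 normalized reads in tra2 XY, a log2 fold change of 0.04 ± 0.14 for tra2 XX over tra2 XY, and Kif3C had 82.2, 131 and 125, for -0.26 ± 0.23. Their levels in tra2 XY overlapped with those in tra2 XX.

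**Figure D4:**
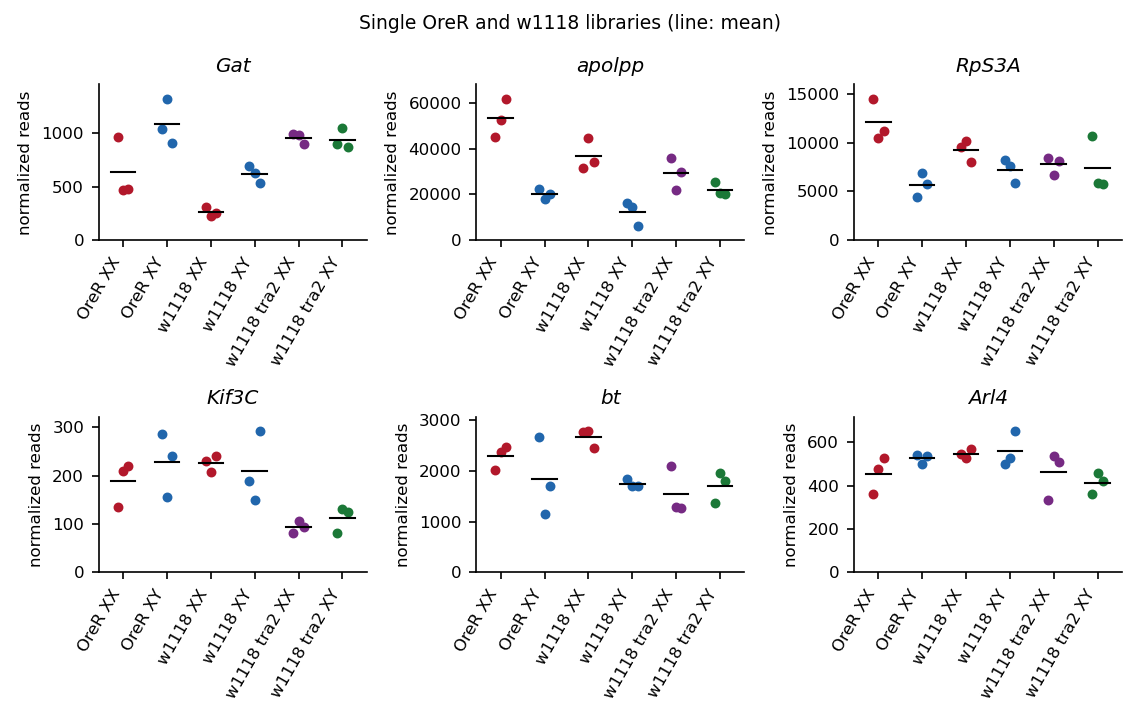
Normalized reads of 6 chromosome 4 genes in single OreR and w1118 libraries. Points are libraries, 3 in each group, and lines are means. Gat is lowest in the 3 w1118 XX libraries (225 to 306), apolpp is lower in XY than in XX in both strains, and Kif3C is low in both tra2 groups.

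In the 3L lines 81 of 95 chromosome 4 genes differed between tra2 XX and XX, 12 higher and 69 lower, where 69.1% of all genes passed (34.5% higher and 34.6% lower). The median log2 fold change was -0.40 on chromosome 4 and -0.02 over all genes. In the X lines, whose libraries are separate, 60 of 93 passed, 10 higher and 50 lower (54.8% of all genes, 26.3% higher and 28.5% lower), with medians of -0.21 and -0.02; without replicate 1 the count was 31. Of the 93 genes tested in both sets, 56 passed in both, 48 lower in both, 8 higher in both and 0 in opposite directions, which is 93.3% of the X line calls and 70% of the 3L line calls. Since 86.0% of these genes were called in the 3L lines, the overlap is near that share, and over all genes 81.7% of the X line calls were called in the 3L lines, where 70.2% of genes were.

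Kif3C had the largest fold change among protein-coding genes in both sets. Its line means were 24.5 to 59.9 (median 41.5) normalized reads in tra2 XX and 96.7 to 183 (median 131) in XX of the 3L lines, with 0 of 11 lines higher in tra2 XX and no overlap. The log2 fold change was -1.64 ± 0.08 (adjusted p = 1.25e-15, edgeR), and in the X lines it was -1.62 ± 0.12. Kif3C overlaps CG32017 in the annotation, and since strand-specific counting is not stated their reads may not be fully separate.

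asRNA:CR44029, a noncoding RNA inside unc-13, fell from 165 to 368 (median 252) to 36.4 to 121 (median 68.9) normalized reads, by -1.78 ± 0.12. The host gene unc-13, a priming factor of synaptic vesicles, fell by 1.06 on the log2 scale, and by 0.22 with the correction for gene length. pan, the TCF factor of Wingless signalling, fell by 1.30 ± 0.08 on the log2 scale, from 1383 to 2289 (median 2023) to 587 to 933 (median 728), and by 0.65 with the correction. All 3 were lower in tra2 XX in 11 of 11 lines.

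Transcription factors counted 16 lower and 1 higher of 18 in the 3L lines, with a median of -0.55, and 10 lower and 2 higher in the X lines, with a median of -0.22. Over all genes 34.6% were lower and 34.5% higher in the 3L lines, and 28.5% and 26.3% in the X lines. NfI, the nuclear factor I, sv, a Pax2 family factor of sense organs, and onecut, a homeodomain factor of neurons, fell in the 3L lines by 0.89 ± 0.06, 0.88 ± 0.06 and 0.65 ± 0.07 on the log2 scale. The remaining gene of this list, toy, had 0.09 ± 0.04 and did not pass. Synapse and neuronal signalling genes gave 7 lower and 3 higher of 10 in the 3L lines and 5 lower and 2 higher in the X lines. The cell surface genes had 5 lower and 0 higher of 7 in the 3L lines (4 lower and 3 higher with the correction for gene length), and the TGF-beta ligands 2 lower and 0 higher of 3.

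The list of translation, energy and basic functions had 3 higher and 6 lower of 10 in the 3L lines, with a median of -0.22, and 3 higher and 2 lower in the X lines, with a median of -0.11. On FPKM it had 4 higher and 4 lower in the 3L lines. Among those that rose were its mitochondrial members ATPsynbeta and ND-49. ATPsynbeta had line means of 16831 to 21609 (median 17885) normalized reads in tra2 XX and 11223 to 17489 (median 12320) in XX of the 3L lines, a log2 fold change of 0.61 ± 0.06. ND-49 rose in 11 of 11 lines by 0.61 ± 0.05, from 1492 to 2056 (median 1649) to 2120 to 2803 (median 2547), without overlap. In the X lines the values were 0.40 ± 0.07 and 0.35 ± 0.07. Gat rose in 11 of 11 3L lines by 0.45 ± 0.08 and in 17 of 19 X lines by 0.43 ± 0.08, and Ekar, a kainate-type glutamate receptor, rose by 0.40 ± 0.06 in the 3L lines and had 0.02 ± 0.05 in the X lines without passing.

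The size of the chromosome 4 shift depends on the scale. In counts the chromosome 4 median was below 0 in 11 of 11 3L lines (-0.61 to -0.29), and the long genes of other chromosomes had -0.60 to -0.06. In FPKM it was below 0 in 9 of 11 lines (-0.58 to 0.17) and below that of the long genes in 1 line. On FPKM 64 chromosome 4 genes passed, 15 higher and 49 lower, with a median of -0.17 beside -0.16 over all genes. The mean log2 FPKM ratio over lines was below 0 for 65.5% of expressed chromosome 4 genes and 64.9% of other genes. So chromosome 4 as a whole did not stand apart there. Kif3C, asRNA:CR44029, pan, ATPsynbeta, ND-49 and Gat passed in the same direction in all 23 alternatives, FPKM included. bt, at -1.04 ± 0.07 in counts, had -0.10 with the correction for gene length (adjusted p = 0.0973, edgeR).

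**Figure D5:**
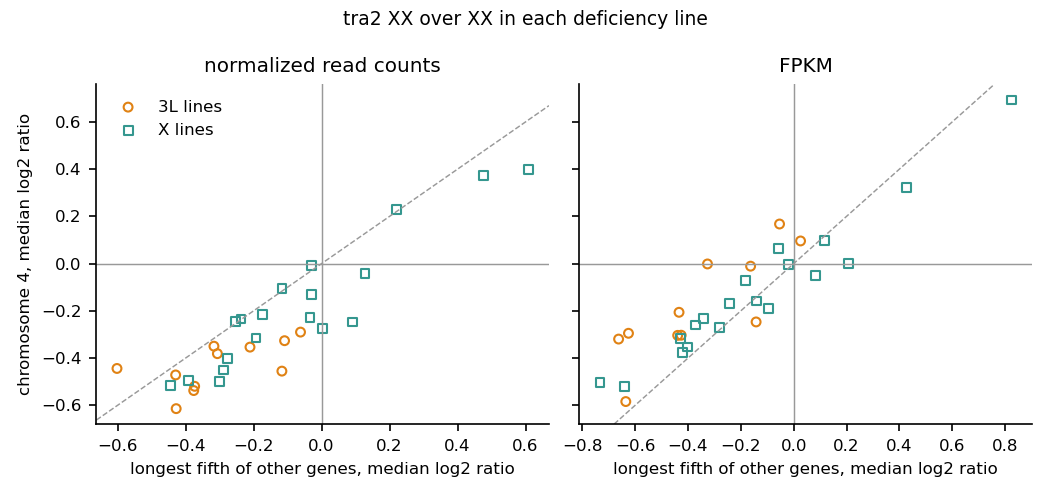
Median log2 ratio of tra2 XX to XX over chromosome 4 genes in each deletion line, against the same over the fifth of genes with the longest span on other chromosomes, in normalized reads (left) and FPKM (right). Each point is a line, and the dashed line marks equal values; in normalized reads 10 of 11 3L lines and 14 of 19 X lines lie below it, and in FPKM 1 and 7 do.

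Markers and regulators moved in the same contrasts. The neuronal markers Syt1 and brp fell by 0.61 and 0.61 in the 3L lines, with 4 markers summing to a median of 11505 normalized reads in tra2 XX and 15526 in XX, while elav and nSyb did not pass. The photoreceptor gene ninaE, which encodes the main rhodopsin, and nrv2 rose by 0.74 and 0.58. Their lists did not move as one in the group medians over all lines. There norpA had 5082 normalized reads in tra2 XX and 6711 in XX, and repo had 382 and 417. The others were higher in tra2 XX: trp (17560 and 14968), ninaC (19060 and 17493) and moody (693 and 638). Pof fell by 0.50 in the 3L lines and 0.38 in the X lines, wde by 0.27 and 0.23, and egg did not pass in either. The part of any of these in the chromosome 4 values was not tested.

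Against XY, tra2 XX of the 3L lines had 84 of 95 genes past the threshold, 12 higher and 72 lower (75.5% of all genes, 37.7% higher and 37.8% lower). With the correction for gene length 21 of the calls were higher and 61 lower, beside 4747 higher and 3602 lower of all 11046 genes tested. This contrast shares its libraries with both others. apolpp was higher in tra2 XX than in XY by 1.27 and RpS3A by 0.69, and Kif3C was lower, at -1.95.

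OreR and w1118 differed little on chromosome 4. Over XX and XY together 6 of 90 genes passed, 2 higher and 4 lower in OreR, where 21.6% of all genes passed (12.1% higher and 9.46% lower). Gat rose by 1.07 ± 0.19 (adjusted p = 0.00151, edgeR): the OreR libraries had 964, 471 and 477 normalized reads in XX and 1039, 1320 and 904 in XY, against the w1118 values above. Within each sex every OreR library was above every w1118 library. The count was 2 without replicate 2 or 3 of w1118 XX, 3 without replicate 2 of OreR XX and 10 without replicate 2 of OreR XY. Rnf11 rose by 0.29, and CG33941, CG31999, CG33521 and CG1674 had -0.38, -0.35, -0.27 and -0.21. In OreR, apolpp had 45250, 52479 and 61881 normalized reads in XX and 22520, 17812 and 20201 in XY, so the 2 sexes did not overlap in that strain either, and no chromosome 4 gene passed a test of the sex difference between strains (0.0101% of all genes did).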

How the data were processed

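Polyadenylated RNA from heads was sequenced by the authors, and per the labels and methods reads were aligned with TopHat2 2.0.10 to release 5 of the genome. Raw counts per gene were made by the authors with HTSeq 0.5.4p1, normalized read counts (a signal of counts over size factors) with DESeq2 1.6.3, and FPKM values with Cufflinks 2.1.1. Of 249 libraries the 14 left out by the study were left out here, and 0 columns belonged to other series. Lines naming no gene held 7.123% and spike-ins 1.193% of reads and were removed. Chromosomes were taken from BDGP6 by gene identifier (16815 matched), and because the builds differ no coordinates are given. Replicates are 3 libraries for most conditions.

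Counts were tested with edgeR 4.0.16 (TMM, filterByExpr, quasi-likelihood test, Benjamini-Hochberg over all genes tested, threshold 0.05) in R 4.3.3. The w1118 libraries were 1 fit, 3L and X lines were fitted as sums per line and group with line as a term, and each line was tested against the other lines of its group. Lines without and with a deletion were compared on sums per line, a comparison added after the data were seen. Line values are means of deposited normalized reads, and chromosome medians of them use genes with a group median over 6. Alternatives were DESeq2 1.42.0, limma 3.58.1 on log2(FPKM + 1) and on log2(FPKM + 0.1), RLE factors, no filter, single libraries, a replicate block and leaving out each replicate or line; an offset for gene span and exonic length, estimated per library on the other chromosomes, was added after seeing the data. Scripts were tested on simulated counts.

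Genes named in the text are the 10 with the highest median FPKM, up to 5 in each direction per contrast with the largest fold change past the threshold, members of 6 functional lists (52 genes), and the 5 most variable over lines in each group; others are named as chosen after their values were seen. Members and lists were chosen with earlier results of these data known. Of the members 49 overlap another gene, and strand-specific counting is not given in the sources used here, so reads of overlapping or antisense genes may not be separate. P-values measure the spread between these pools or lines, which may be partly technical.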

Additional observations from a re-analysis of the deposited data

Results flagged for a closer look

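The effect of the tra2 alleles on XX flies differed between the X lines and the 3L lines for 20 of 94 chromosome 4 genes tested, 19 with a more positive and 1 with a more negative value in the X lines, by an interaction test across all genes (edgeR, adjusted over all genes, where 17.8% of all genes passed). Among the genes named by rule, the difference of log2 fold changes was 0.30 for Arl4 (adjusted p = 0.0191), 0.41 for CG33521 (adjusted p = 0.0039) and 0.30 for Rnf11 (adjusted p = 0.0401). It was 0.52 for Sox102F (adjusted p = 0.00193), which fell by 0.41 in the 3L lines and had 0.10 in the X lines, and 0.43 for dati (adjusted p = 0.00944), which fell by 0.53 in the 3L lines and had -0.12 in the X lines. It was 0.29 for Syt7 (adjusted p = 0.0249), 0.62 for fuss, a Ski/Sno family cofactor of neurons (adjusted p = 0.00985), and 0.75 for lncRNA:CR44024 (adjusted p = 0.0141). Ekar went the other way, at -0.37 (adjusted p = 0.00518), with 0.40 in the 3L lines, where it passed, and 0.02 in the X lines, where it did not. With the correction for gene length Rnf11 and Syt7 did not pass (adjusted p = 0.437 and 0.123).

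In w1118 the difference between XX and XY was not the same with and without the tra2 alleles for Gat: the log2 fold change of XX over XY was lower without them, by a difference of -1.30 ± 0.20 (adjusted p = 0.0111, edgeR), where 1.03% of all genes passed. It was the 1 chromosome 4 gene of 91 past that test, which was not run with the correction for gene length.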

How the results depend on the processing

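Counts of chromosome 4 genes past the threshold moved by over 1.5 times as follows, and where not stated the cause was not tested. For tra2 XX over XX in w1118 (11), DESeq2 gave 18, a fit of the 2 groups alone 51 and leaving out tra2 XY replicate 1 gave 29. For XX over XY in the 3L lines (53), FPKM gave 82, 84 and 86 (pseudocount 0.1, pseudocount 1, no filter). For tra2 XX over XX in the X lines (60) they gave 34, 37 and 34. For OreR over w1118 (6), DESeq2 gave 12 and the correction for gene length 14. With that correction, lines without over with a deletion in XX had 59 calls (34) and single-line calls in XY numbered 92 (46). Levels were 4.97 (XX), 4.73 (tra2 XX) and 5.31 (XY) over genes above 6 normalized reads (4.61, 4.43 and 4.93 before), higher by construction, and 4.93, 4.87 and 4.91 in the w1118 libraries alone. Directions reversed for CG33521 in 3L XX over XY, to -0.12 on FPKM in each of its 3 settings, and for pan in XY lines without over with a deletion, to 0.074 with the correction for gene length.

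Leaving out replicates or lines gave 2 to 7 calls for XX over XY, 4 to 29 for tra2 XX over XX and 0 to 2 for tra2 XX over tra2 XY in w1118. In the 3L lines it gave 39 to 61 for XX over XY, 76 to 81 for tra2 XX over XX and 78 to 83 for tra2 XX over XY, in the X lines 31 to 68, and for OreR over w1118 2 to 10. Lines without over with a deletion had 21 to 28 in XX, 22 to 54 in tra2 XX and 17 to 39 in XY. Single-line calls were 126 to 331 in XX (126 without replicate 3, 182 without replicate 2), 88 to 193 in tra2 XX (88 without replicate 2, 99 without replicate 3) and 10 to 62 in XY (10 without replicate 3, 19 without replicate 1). Levels ran from 4.53 to 4.67, 4.41 to 4.46 and 4.86 to 4.98 in XX, tra2 XX and XY. Of 80 results for named genes, 54 passed under every setting run, and 25 lost their call under at least 1.

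Replicate numbers did not pair the w1118 libraries throughout, since deviations of same-numbered libraries correlated at -0.35 to 0.43. In 9 of 18 comparisons a library correlated best with its own number in the other group. The other lines were not checked. With the replicate number as a block the counts were 3, 14 and 0 for the w1118 contrasts XX over XY, tra2 XX over XX and tra2 XX over tra2 XY, 51, 80 and 79 for the 3L contrasts XX over XY, tra2 XX over XX and tra2 XX over XY (single libraries), 67 for the X lines and 5 for OreR over w1118, none moved by over 1.5 times. A block was not run for single-line calls, and the sums behind lines without over with a deletion hold no replicate number.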

Other observations

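How much a chromosome 4 gene varied between lines was itself uneven. The SD of line means on the log2 scale had chromosome 4 medians of 0.31 (XX), 0.23 (tra2 XX) and 0.17 (XY), beside 0.29, 0.23 and 0.20 over all genes. In XX the highest were asRNA:CR44029 at 0.84, apolpp at 0.69, pan at 0.66, lncRNA:CR44024 at 0.66 and CG32006 at 0.65, and in XY bt at 0.49, yellow-h at 0.40, apolpp at 0.39, asRNA:CR44030 at 0.39 and Gat at 0.37. Chosen after their values were seen, the least variable were Rad23, a ubiquitin receptor of DNA repair, in XX and tra2 XX, at 0.09 in each, and gw, the GW182 protein of miRNA silencing, in XY, at 0.07.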
